A study of Mus musculus with 6 samples.

Results

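The 8 mouse genes described here code for proteins at the centre of Alzheimer disease research and for 1 synuclein: App, Bace1, Psen2, Sorl1, Mapt, Sncb, Apoe and Clu. They were chosen by symbol, as the genes of the count table whose GRCm38 symbol is on that list, and all 8 were found among the 54838 genes of the table. RNA of hippocampi from 3 wild-type and 3 Tg(ORAI1)Ibd females was sequenced, with 1 library for each mouse, to compare gene expression between the genotypes. Mice of both genotypes were 7 months old. Tg(ORAI1)Ibd mice are a line on the FVB/NJ background in which the coding sequence of human ORAI1, the pore-forming channel of store-operated calcium entry, sits in the Thy1.2 cassette that drives expression in neurons. A single transgenic line was sequenced, and the sources used here do not say whether the wild-type mice were littermates of the transgenic ones.

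The amyloid precursor protein App is cut first by the beta-secretase Bace1 and then by gamma-secretase, of which Psen2 can be the catalytic subunit, and the stretch released between both cuts is the amyloid-beta peptide that accumulates in plaques. Sorl1 is a sorting receptor that steers App through endosomes with the retromer complex, and Apoe and Clu are lipid-carrying apolipoproteins, made in the brain mainly by astrocytes, that bind amyloid-beta. Mapt codes for tau, the microtubule-associated protein of neurofibrillary tangles. Sncb codes for beta-synuclein, a presynaptic protein of the synuclein family.

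The stretch of App that codes for the amyloid-beta peptide is given here because the genes of cleavage, sorting and clearance below are grouped by what they do to it. It was read from the sequence of a GENCODE M21 transcript (ENSMUST00000227723.1), and on GRCm38 it lies at chr16:84962794-84965720 on the minus strand. The first 51 bases lie in exon 16 and the other 75 in exon 17 of 18. The 126 bases are 42 codons, the first of which is codon 672 of 770 in this transcript. Capitals mark the first codon after the beta-secretase cut and the last 3 codons, 40 to 42, where the products of gamma-secretase end.
App amyloid-beta stretch: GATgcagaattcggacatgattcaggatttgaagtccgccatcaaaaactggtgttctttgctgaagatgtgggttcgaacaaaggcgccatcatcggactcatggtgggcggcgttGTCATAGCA
The deposited counts are summed over all exons of a gene, so they do not separate the transcripts that contain this stretch from any others.

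On GRCm38, App (ENSMUSG00000022892) spans chr16:84949685-85173766 on the minus strand, with 11 annotated transcripts and 12996 bp of exons. Bace1 (ENSMUSG00000032086) lies at chr9:45838580-45864399 on the plus strand, with 6 transcripts and 6348 bp of exons. Of these, 2061 bp (32.5%) also belong to genes on the opposite strand, mainly Rnf214 and Gm49338, and the counting was strand-specific. Psen2 (ENSMUSG00000010609) was annotated at chr1:180227004-180263438, minus strand, with 12 transcripts and 4332 bp. Sorl1 (ENSMUSG00000049313) is at chr9:41964720-42124297, minus strand, with 4 transcripts and 11321 bp, and Mapt (ENSMUSG00000018411) at chr11:104231390-104332090, plus strand, with 12 transcripts and 7531 bp. The compact genes were Sncb (ENSMUSG00000034891) at chr13:54758860-54766595, minus strand, with 4 transcripts and 2145 bp, and Apoe (ENSMUSG00000002985) at chr7:19696109-19699188, minus strand, with 11 transcripts and 2138 bp. Clu (ENSMUSG00000022037) is at chr14:65968483-65981547, plus strand, with 9 transcripts and 3437 bp. All 8 are protein-coding, and none shares exonic bases with another gene on the same strand.

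Between 37710188 and 52497799 fragments were counted on genes in the wild-type libraries and between 37414241 and 47027279 in the transgenic libraries, and the lowest count of any of the 8 genes in any library was 550, for Psen2. Values in CPM below are fragment counts relative to the library total after TMM scaling, and FPKM are these divided by the deposited gene length in kb. The count of Orai1, which checks the labels, was 7.18, 7.16 and 8.08 CPM in wild-type and 313.4, 331.1 and 316.1 CPM in transgenic hippocampi. Genes of neurons, astrocytes, microglia and oligodendrocytes were measured in every library, and no gene of these marker lists was at 0. Wild-type and transgenic libraries differed in genes of the choroid plexus, the epithelium that borders the ventricles. All 15 genes of that list were lower in the transgenic libraries, and their summed level was 3876 to 6040 CPM in wild-type and 553.8 to 865.2 CPM in transgenic hippocampi. The summed level of 5 genes of the ependyma, which lines the ventricles, was 34.1 to 49.4 CPM in wild-type and 24.3 to 32.2 CPM in transgenic hippocampi, with all 5 log2 fold changes below 0 and none past the test. Of 6 endothelial genes, 1 passed the test, Cldn5, with a log2 fold change of 0.66 and an adjusted p of 0.0430 in edgeR's quasi-likelihood test.

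None of the 8 genes passed edgeR's quasi-likelihood test between the genotypes at a Benjamini-Hochberg adjusted p under 0.05, with the lowest adjusted p at 0.207 and the highest at 0.881. The same test called 7.10% of the 19087 genes tested, 3.10% as higher and 4.0% as lower in Tg(ORAI1)Ibd hippocampi. At an unadjusted p under 0.05, edgeR had 0 of the 8 genes against 27.8% of all genes tested, and DESeq2's Wald test and limma-voom also called 0 of the 8 after adjustment, with 1 and 0 at an unadjusted p under 0.05. Log2 fold changes were above 0 for 6 genes and below 0 for 2, App and Sorl1. The median size of the log2 fold change, regardless of sign, was 0.08 over the 8 genes and 0.15 over all genes tested. Groups that did not overlap, with every transgenic value beyond every wild-type value, were seen for 1 of the 8 genes, App, and for 34.9% of all genes tested. For 3 mice against 3, the smallest p of an exact permutation test is 0.1.

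**Figure D1:**
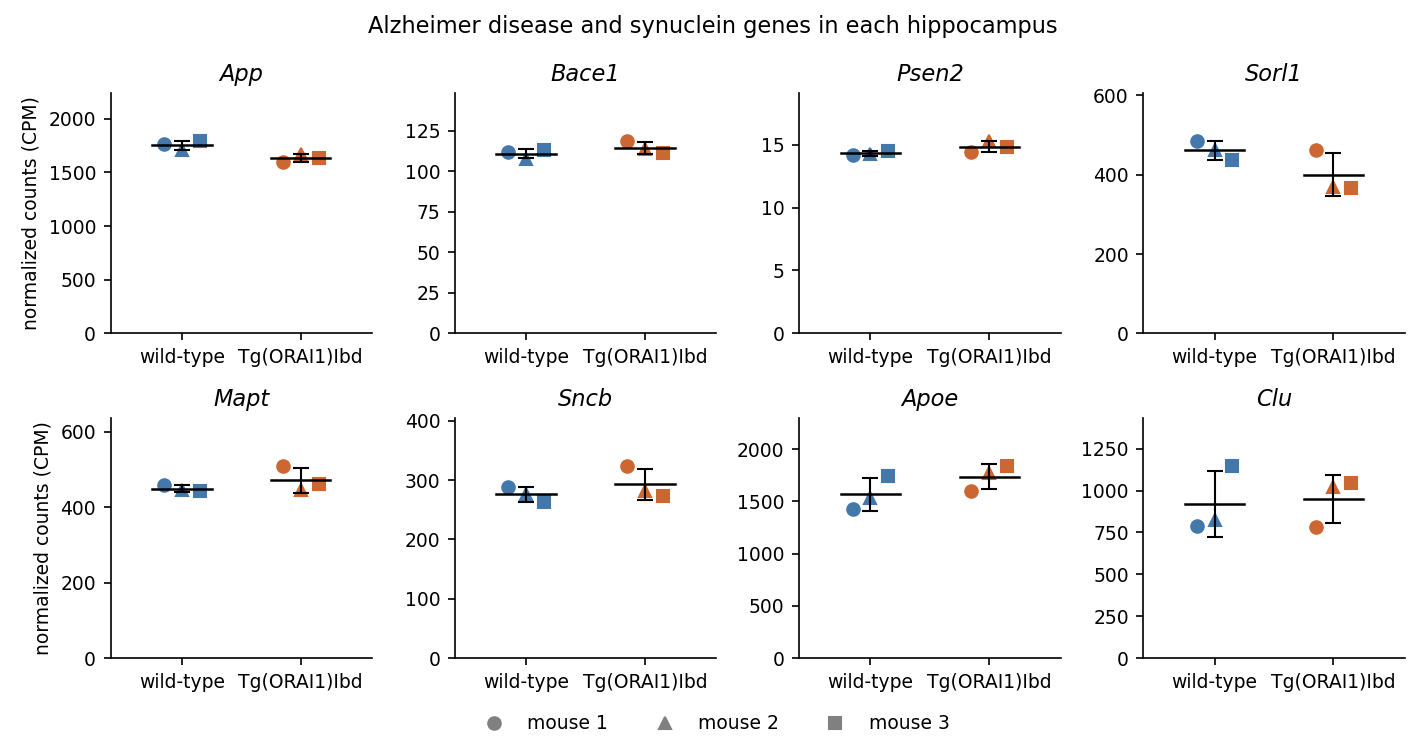
Normalized counts (CPM, linear axes from 0) of the 8 genes in the hippocampus of each wild-type (blue) and Tg(ORAI1)Ibd (orange) mouse. Marker shapes stand for mouse 1, 2 and 3 of a genotype, the long lines for the means and the bars for 1 SD with n = 3. The groups stand apart for App alone, while for each of the other 7 genes the range of the transgenic mice exceeds the distance between the genotype means.

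App, the substrate of amyloid-beta release, was at 1763, 1705 and 1787 CPM in wild-type and at 1599, 1674 and 1633 CPM in Tg(ORAI1)Ibd hippocampi. Each transgenic value was below each wild-type value, and the means were 1752 ± 42.2 and 1635 ± 37.8 CPM (SD, n = 3). The log2 fold change was -0.10 (SE 0.053, 95% interval -0.22 to 0.02), which is a difference of -6.66% with an interval from -14.3% to 1.70%, and its adjusted p in edgeR's quasi-likelihood test was 0.266. When the trend of counts on gene length was removed from each library, the log2 fold change turned to 0.04, and with the trend on GC content removed it was -0.02. Across all genes tested the fold change fell with gene length (Spearman's rho -0.166) and rose with transcript GC content (rho 0.383, 19079 genes). Genes are not independent replicates, so these coefficients describe the table and have no test.

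Bace1, which makes the first cut, was at 112.1, 107.9 and 112.9 CPM in wild-type and 118.4, 113.7 and 111.0 CPM in transgenic mice. The third transgenic mouse lay within the wild-type range, the first was above it and the second just above it. The log2 fold change was 0.04 (SE 0.044, 95% interval -0.06 to 0.15), so that a difference between -4.04% and 10.8% was compatible with the data (edgeR adjusted p = 0.566). Without the first transgenic mouse it was 0.02, without the third 0.09, and with the length trend removed 0.10. Relative to App in the same library and per length, Bace1 was at 0.130, 0.130 and 0.129 in wild-type and at 0.152, 0.139 and 0.139 in transgenic mice. This ratio was higher in every transgenic library, by 0.14 on the log2 scale, against an SD of 0.005 among wild-type and 0.072 among transgenic mice. The exact permutation test gave p = 0.1, the smallest it can give, and 0.3 after adjustment over 6 such ratios.

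Psen2, a gamma-secretase subunit, was the least abundant of the 8 genes in CPM and per length. It was at 14.18, 14.24 and 14.53 CPM in wild-type and at 14.45, 15.25 and 14.85 CPM in transgenic hippocampi. The first transgenic mouse fell within the wild-type range and the other two stood above it. The log2 fold change was 0.05 (SE 0.061, 95% interval -0.09 to 0.19, edgeR adjusted p = 0.619), and it was -0.01 when the trend on GC content was removed.

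Sorl1, the sorting receptor, had the largest log2 fold change of the 8 genes, regardless of sign, in edgeR with all mice. Sorl1 did not lead once the length trend was removed, or without the third wild-type, the second transgenic or the third transgenic mouse. Its level was 484.0, 463.6 and 437.5 CPM in wild-type and 462.9, 370.0 and 366.8 CPM in Tg(ORAI1)Ibd mice. The second and the third transgenic mouse were below all wild-type mice, while the first lay inside their range. The means were 461.7 ± 23.3 and 399.9 ± 54.6 CPM (SD, n = 3), with a log2 fold change of -0.21 (SE 0.095, 95% interval -0.43 to 0.02) and an edgeR adjusted p of 0.207. Without the first transgenic mouse the log2 fold change was -0.33 with an edgeR adjusted p of 0.0264, and in the 6 fits that each left out 1 mouse it ranged from -0.33 to -0.13. Removing the length trend gave -0.08. Against App in the same library, Sorl1 differed by -0.12 on the log2 scale, with overlapping groups (exact permutation p = 0.4). That difference was -0.24 without the first, -0.05 without the second and -0.06 without the third transgenic mouse.

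**Figure D2:**
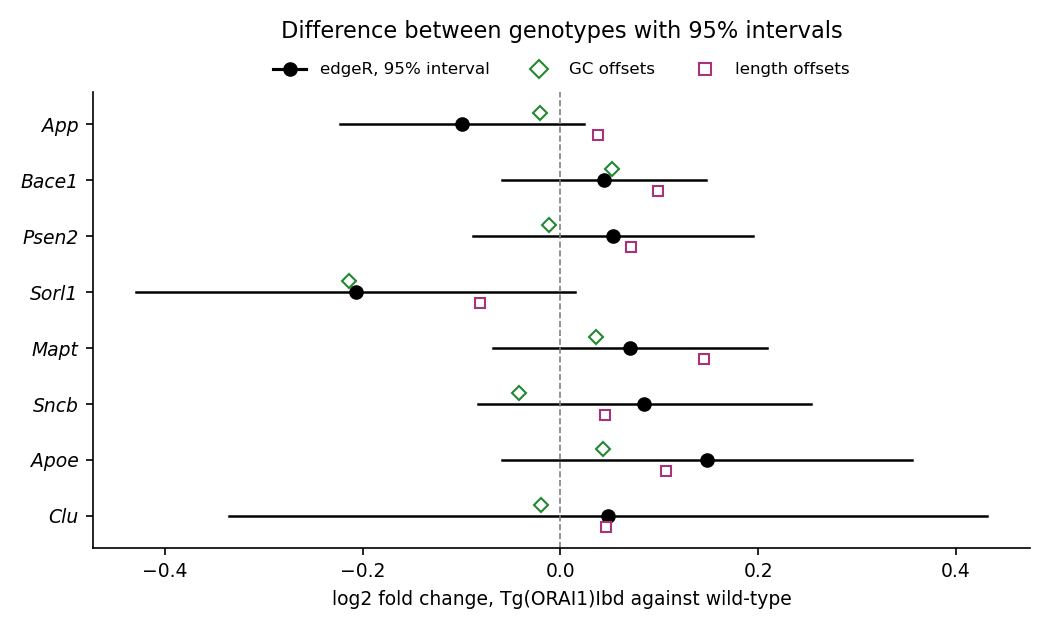
Log2 fold change of each gene in Tg(ORAI1)Ibd against wild-type hippocampi (x axis) from edgeR, with its 95% interval as a bar. Open diamonds and squares give the value after the trend on GC content or on gene length was removed from each library. All 8 intervals include 0, and App, Psen2, Clu and Sncb have 1 open symbol on the other side of 0.

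Mapt, the gene of tau, was at 458.9, 445.2 and 443.7 CPM in wild-type and at 508.7, 445.3 and 461.0 CPM in transgenic mice. The second transgenic value lay between the wild-type values, the third was just above them and the first stood well above them. It had a log2 fold change of 0.07 (SE 0.060, 95% interval -0.07 to 0.21, edgeR adjusted p = 0.487), which was 0.01 without the first transgenic mouse and 0.13 without the second. It was 0.04 with the GC trend and 0.15 with the length trend removed. Relative to Map2, the microtubule-associated protein of dendrites, Mapt was at 0.571, 0.613 and 0.575 in wild-type and at 0.772, 0.645 and 0.677 in transgenic libraries per length. Every transgenic ratio exceeded every wild-type ratio, by a mean of 0.25 on the log2 scale, with the smallest possible exact permutation p of 0.1 (0.3 adjusted over 6 ratios). Map2 itself was at 1587 to 1756 CPM in wild-type and 1439 to 1509 CPM in transgenic mice, with a log2 fold change of -0.18 and an edgeR adjusted p of 0.10.

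Sncb was at 288.6, 276.0 and 263.5 CPM in wild-type and at 323.4, 281.2 and 273.5 CPM in transgenic mice. The first transgenic mouse was the highest of the 6, and the other two were within the wild-type range. Sncb had a log2 fold change of 0.08 (SE 0.072, 95% interval -0.08 to 0.25, edgeR adjusted p = 0.491), with 0.01 when the first transgenic mouse was left out, 0.15 when the third was, and -0.04 with the GC trend removed.

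Per length, Apoe was the most abundant of the 8 genes, while in CPM it was below App in wild-type mice. It was at 1426, 1535 and 1739 CPM in wild-type and 1603, 1769 and 1837 CPM in Tg(ORAI1)Ibd mice. The third wild-type mouse lay above the first transgenic mouse, so the groups overlapped. The means were 1567 ± 159 and 1736 ± 120 CPM (SD, n = 3), and the log2 fold change of 0.15 (SE 0.089, 95% interval -0.06 to 0.36) had an edgeR adjusted p of 0.322. It was 0.04 after removal of the GC trend and 0.24 without the third wild-type mouse.

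Clu varied most among mice. It was at 787.3, 823.0 and 1145 CPM in wild-type and at 782.3, 1023 and 1043 CPM in transgenic hippocampi. The lowest value was that of the first transgenic mouse and the highest that of the third wild-type mouse, so the ranges overlapped over most of their width. The log2 fold change was 0.05 (SE 0.165, 95% interval -0.34 to 0.43, edgeR adjusted p = 0.881), an interval that leaves differences from -20.7% to 34.9% undecided. Its sign depended on single mice, with 0.24 without the third wild-type mouse and -0.04 without the first, and it was -0.02 with the GC trend removed. The log2 ratio of Apoe to Clu was 1.47 ± 0.160 in wild-type and 1.57 ± 0.135 in transgenic mice (SD, n = 3, exact permutation p = 0.6), a difference of 0.09 that was 0.002 without the third wild-type mouse and 0.15 without the second.

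Apoe and Clu were high in the same 3 mice, the third wild-type and the second and the third transgenic mouse. Psen2 was also highest in these mice, by a small margin (14.53, 15.25 and 14.85 CPM), and Sorl1 was lowest in them (437.5, 370.0 and 366.8 CPM). The summed level of 8 astrocyte genes was 5066, 5136 and 6890 CPM in wild-type and 4994, 6210 and 6121 CPM in transgenic hippocampi, highest in those 3 mice. So was the sum of 7 microglia genes, at 288.2, 308.0 and 393.1 CPM in wild-type and 281.7, 426.8 and 410.7 CPM in transgenic mice. Gfap, the intermediate filament of astrocytes, was at 322.9, 354.9 and 835.8 CPM against 385.6, 921.9 and 839.8 CPM, relatively the widest range of the 8. Of the other astrocyte genes, all but Aldoc were also highest in those 3 mice, with a narrower relative range than Gfap. Over all 6 mice, Slc1a2 ran from 2852 to 4020 CPM, Aqp4 from 124.2 to 240.5 CPM and Aldh1l1 from 42.2 to 47.2 CPM. Aldoc was highest in the first transgenic mouse (657.8 CPM). Between genotypes, log2 fold changes were -0.07 for Slc1a2 and Slc1a3 and -0.06 for Aqp4. None of the 8 astrocyte genes and none of the 7 microglia genes passed edgeR's test between genotypes, and the sum of 7 neuron genes was 5347 to 5561 CPM in wild-type and 5336 to 5483 CPM in transgenic mice. Genes of the choroid plexus, which also makes Clu, differed between genotypes as given above. The part of these cell types in the levels of Apoe, Clu, Psen2 and Sorl1 was not tested. In bulk tissue, fewer cells of a type and less RNA per cell cannot be told apart.

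**Figure D3:**
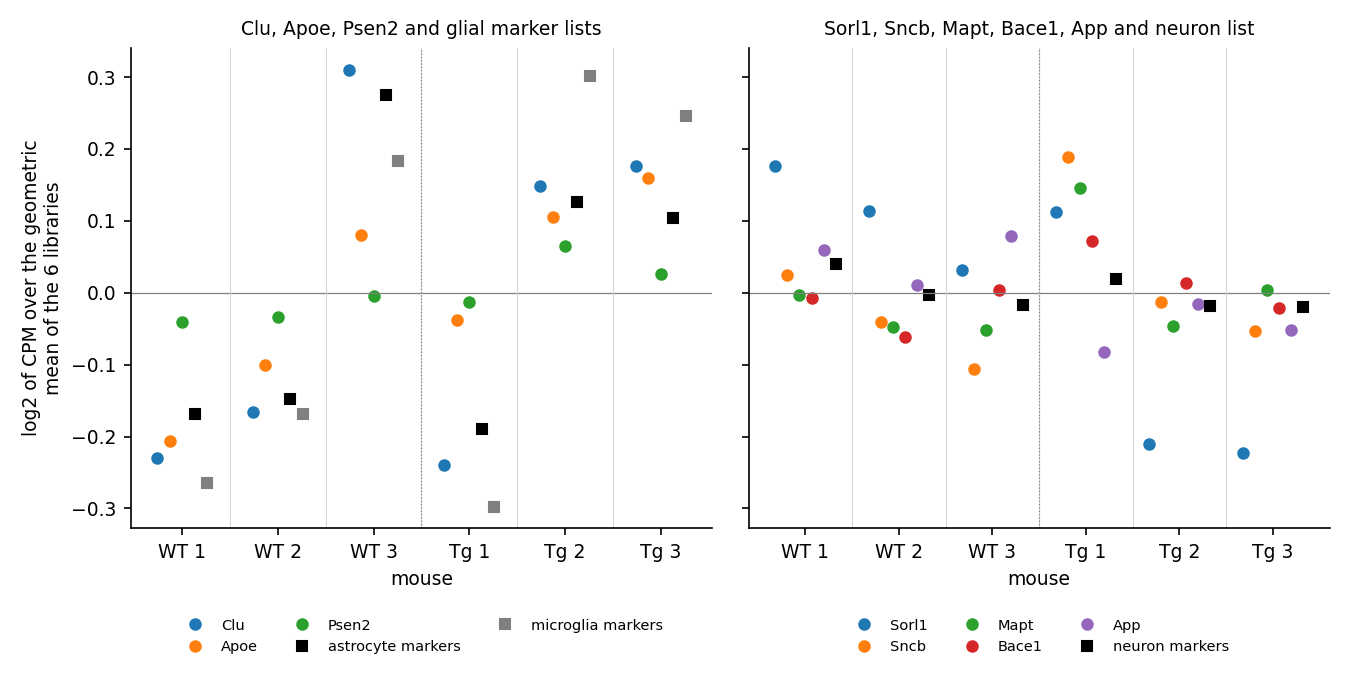
Log2 of CPM relative to the geometric mean of the 6 libraries (y axis) for each wild-type (WT) and Tg(ORAI1)Ibd (Tg) mouse, for Clu, Apoe and Psen2 with the summed astrocyte and microglia genes (left) and for Sorl1, Sncb, Mapt, Bace1 and App with the summed neuron genes (right). Clu ran from -0.24 to 0.31 with its high values in WT 3, Tg 2 and Tg 3, as did the astrocyte sum (-0.19 to 0.28), while Sorl1 was lowest in Tg 2 and Tg 3 (-0.21 and -0.22).

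The spread among mice of a genotype differed widely between the 8 genes. The coefficient of variation of CPM in wild-type mice was 1.31% for Psen2, 1.87% for Mapt, 2.41% for App, 2.43% for Bace1, 4.53% for Sncb and 5.05% for Sorl1. These were below the median of all genes tested, 7.12%, while Apoe with 10.2% and Clu with 21.5% were above it. In transgenic mice the coefficient was 2.31% for App, 2.71% for Psen2, 3.29% for Bace1, 6.94% for Apoe and 7.0% for Mapt, below the median of 8.28%. It was 9.17% for Sncb, 13.7% for Sorl1 and 15.3% for Clu, above that median. The first transgenic mouse stood apart from the other transgenic mice, above them for Mapt, Sncb and Sorl1 and below them for Apoe and Clu.

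Compared per length, the levels of the 8 genes covered more than 2 orders of magnitude. The deposited length covers the exons of all annotated transcripts of a gene, so FPKM is too low where the transcripts present are shorter. The order, the ratios between genes and the ranks below depend on these lengths. In wild-type hippocampi the order in FPKM was Apoe (732.8 ± 74.4), Clu (267.2 ± 57.3), App (134.8 ± 3.25), Sncb (128.7 ± 5.83), Mapt (59.7 ± 1.12), Sorl1 (40.8 ± 2.06), Bace1 (17.5 ± 0.424) and Psen2 (3.31 ± 0.043, all SD, n = 3). App and Sncb had overlapping ranges, and all other neighbours in this order did not overlap, with Apoe 2.77 times Clu and Bace1 5.29 times Psen2. In transgenic hippocampi the mean of Sncb, 136.5 ± 12.5 FPKM, came before that of App, 125.8 ± 2.91 FPKM, again with overlapping ranges, and the remaining order was the same. Transgenic means were 812.1 ± 56.3 FPKM for Apoe, 276.3 ± 42.3 for Clu, 62.6 ± 4.38 for Mapt, 35.3 ± 4.82 for Sorl1, 18.0 ± 0.592 for Bace1 and 3.43 ± 0.093 for Psen2. Among the 19087 genes tested Apoe ranked 14 by mean FPKM, Clu 60, Sncb 210, App 213, Mapt 633, Sorl1 1188, Bace1 2892 and Psen2 10001. The substrate App was thus counted at far higher levels per length than the protease genes Bace1 and Psen2.

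**Figure D4:**
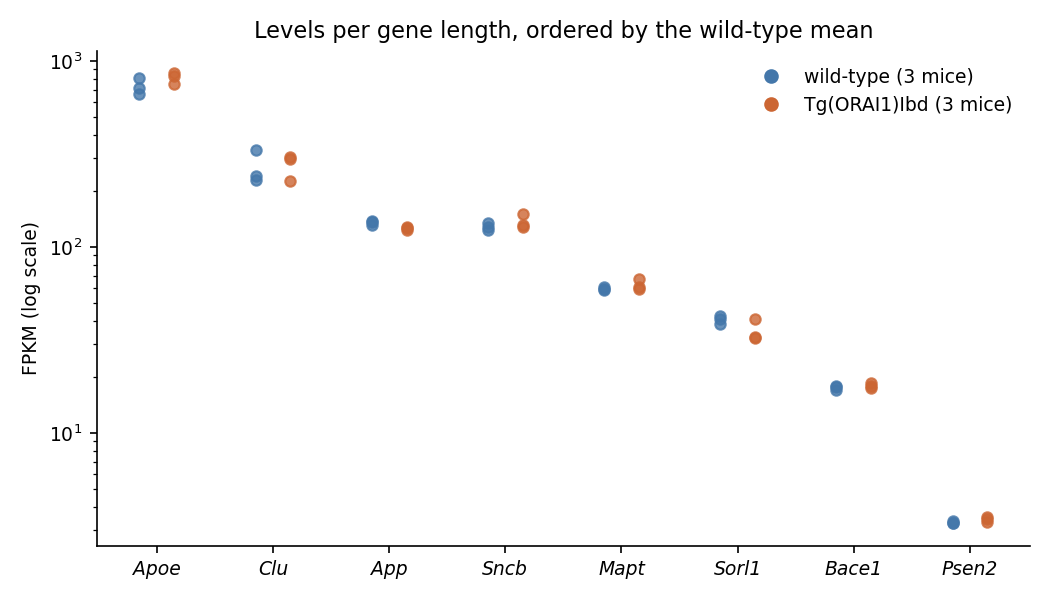
FPKM (log axis) of the 8 genes in each of 3 wild-type (blue) and 3 Tg(ORAI1)Ibd (orange) hippocampi, ordered by the wild-type mean. Apoe lies at 666.9 to 859.2 FPKM and Psen2 at 3.27 to 3.52 FPKM, and App and Sncb both lie between 122.9 and 150.7 FPKM.

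The genes whose levels over the 6 libraries resembled each of the 8 most closely were ranked by Pearson's r of log2 CPM among 11191 genes. The 6 libraries fall into 2 genotypes and differ in depth and in the level of cell type genes, so these values describe the libraries and have no test. The likest genes were Dars (r = 0.993), Ano4 and Mansc1 for App, Castor2 (0.985), St8sia5 and Dok7 for Bace1, and Asl (0.996), Aldh4a1 and Spcs1 for Psen2. For Sorl1 they were Gpatch2 (0.997), Kif3a and Stox2, for Mapt Hdac5 (0.998), Ampd2 and Tle2, and for Sncb Stk4 (0.994), Entpd6 and Midn. Apoe was most like Prdx6 (0.999), a peroxiredoxin, with Mpv17 and Cnrip1, and Clu most like Rida (0.9955), Scara3 and Sh3glb1. No gene was among the 3 likest of more than 1 of the 8.

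Other genes of the same pathways were taken from 9 lists of 77 genes, of which 76 were tested. Of these 6 passed edgeR's test, 4 lower and 2 higher in Tg(ORAI1)Ibd hippocampi, which is 7.89% against 7.10% of all genes tested, and in 26 genes (34.2%) the groups did not overlap against 34.9% of all genes. The median log2 fold change was 0.01 over the 76 genes and -0.01 over all genes. Aph1c, Vldlr, Vps29 and Gsk3b were the lower genes and Uchl1 and Bin1 the higher genes. None of the 6 kept an adjusted p under 0.05 when the trend on GC content or on length was removed (0.0749 to 0.249 and 0.0511 to 0.108), and none kept it without the first or second wild-type or the second or the third transgenic mouse. All 6 kept their direction in these fits. Log2 fold changes of the 4 lower and the 2 higher genes were -0.19 to -0.14 and 0.17 to 0.19 with the GC trend removed, -0.24 to -0.15 and 0.22 to 0.25 with the length trend removed, and -0.32 to -0.22 and 0.225 to 0.34 in the fits that left out 1 mouse. Aph1c had an adjusted p of 0.0608 in edgeR without the filter on low counts, and Uchl1 and Bin1 had 0.0507 and 0.0549 without the first transgenic mouse.

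**Figure D5:**
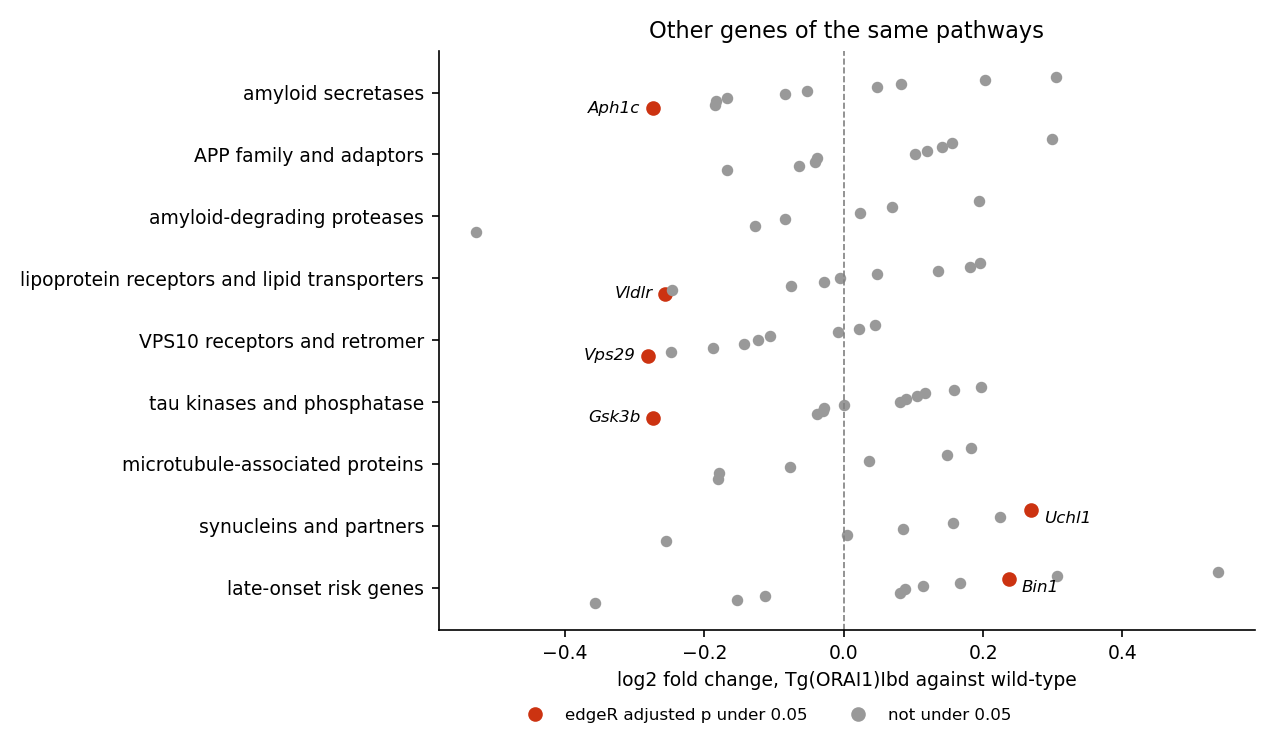
Log2 fold change in Tg(ORAI1)Ibd against wild-type hippocampi (x axis) of the 76 tested genes of 9 pathway lists (y axis), with 1 point per gene, spread vertically within a list only for legibility. Red points are the 6 genes with an edgeR adjusted p under 0.05, whose log2 fold changes lie between -0.28 and 0.27, and grey points the other genes.

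The lists below are short, and 1 call in a list of 6 to 11 genes is not read as particular to it where 7.10% of all genes tested were called. Among the secretase genes, 1 of 10 was called lower and none higher, with a median log2 fold change of -0.07. Aph1c (ENSMUSG00000053040), a scaffold subunit of gamma-secretase, was at 23.0, 23.4 and 22.1 CPM in wild-type and 18.9, 18.6 and 19.2 CPM in transgenic mice (log2 fold change -0.27, SE 0.054, edgeR adjusted p = 0.0336). All transgenic values were below all wild-type values. Its near-identical paralog Aph1b was at 33.0, 34.3 and 31.9 CPM against 28.3, 30.0 and 29.0 CPM (log2 fold change -0.18, edgeR adjusted p = 0.0745), and since reads could be shared between these copies the level of each is uncertain. The alpha-secretase Adam10, with the highest FPKM of the list, had a log2 fold change of -0.08 and an edgeR adjusted p of 0.512. Of the 9 App relatives and adaptors tested and of the 6 proteases that degrade amyloid-beta, none passed the test, with medians of 0.10 and -0.03. The genes with the highest FPKM of each, Aplp1 and the lysosomal protease Ctsd, had log2 fold changes of 0.14 and -0.13 with edgeR adjusted p of 0.126 and 0.451.

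In the sorting and lipoprotein lists, 1 of 9 genes in each was called lower and none higher. Vps29 (ENSMUSG00000029462), a subunit of the retromer with which Sorl1 works, was at 114.5, 120.5 and 106.8 CPM in wild-type and 92.85, 93.72 and 94.76 CPM in transgenic hippocampi (log2 fold change -0.28, SE 0.052, edgeR adjusted p = 0.0291). The sorting receptor Sort1, with the highest FPKM of that list, had a log2 fold change of -0.12 and an edgeR adjusted p of 0.381, and the list's median was -0.12. Vldlr (ENSMUSG00000024924), a receptor that binds Apoe and reelin, was at 118.5, 121.7 and 122.3 CPM in wild-type and 101.4, 99.5 and 102.6 CPM in transgenic mice (log2 fold change -0.26, SE 0.039, edgeR adjusted p = 0.0200). In both genes the groups were well apart, with little spread among the transgenic mice. Apod, the gene with the highest FPKM of the lipoprotein list, varied from 146.6 to 380.0 CPM among transgenic mice, with a log2 fold change of 0.20 and an edgeR adjusted p of 0.740, and the median of this list was 0.00.

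Of 11 kinases and phosphatase genes that act on tau, 1 was called lower and none higher, with a median of 0.08. Gsk3b (ENSMUSG00000022812), a tau kinase, was at 217.6, 210.6 and 201.1 CPM in wild-type and 170.0, 177.4 and 173.3 CPM in transgenic hippocampi (log2 fold change -0.27, SE 0.046, edgeR adjusted p = 0.0254). Its paralog Gsk3a, the most abundant of the list per length, had a log2 fold change of 0.12 and an edgeR adjusted p of 0.146. The 6 genes of other microtubule-associated proteins had a median of -0.02 and no call, with Map1a at the highest FPKM (log2 fold change 0.04, edgeR adjusted p = 0.758).

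Among 6 synuclein genes and partners, 1 was called higher and none lower, with a median of 0.12. Uchl1 (ENSMUSG00000029223), a neuronal ubiquitin hydrolase, was at 491.2, 489.8 and 556.8 CPM in wild-type and 600.4, 637.9 and 614.4 CPM in transgenic mice (log2 fold change 0.27, SE 0.064, edgeR adjusted p = 0.0487). It had the highest FPKM of its list, and its adjusted p in edgeR was above 0.05 under total-count scaling (0.0528) and upper-quartile scaling (0.0535). Of 10 genes that carry risk variants of late-onset disease, 1 was called higher and none lower, with a median of 0.10. Bin1 (ENSMUSG00000024381), a membrane-bending adaptor, was at 246.8, 255.5 and 266.3 CPM in wild-type and 302.2, 288.0 and 315.7 CPM in transgenic mice (log2 fold change 0.24, SE 0.053, edgeR adjusted p = 0.0430). Ptk2b, the kinase with the highest FPKM of that list, had a log2 fold change of 0.11 with an edgeR adjusted p of 0.506.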

How the data were processed

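The 6 libraries were made from polyA RNA of single hippocampi, 3 for each genotype. The authors trimmed reads with Trimmomatic, aligned them with STAR to mm10 and deposited raw counts of fragments per gene, made with featureCounts 1.5.0-p1 on Ensembl 95, strand setting 2 and a mapping quality of at least 3. The deposited table also gives each gene's exonic length.

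From these counts, filterByExpr (minimum count 10) kept 19087 genes. After TMM scaling, edgeR's quasi-likelihood test (edgeR 4.0.16, R 4.3.3) was run between genotypes on all 6 libraries without covariates, with Benjamini-Hochberg adjustment at 0.05. FPKM were computed from the scaled counts and the deposited lengths. Ratios within a library were compared by an exact two-sided permutation test. Each library was 1 mouse, so mice were the replicates in all tests. In edgeR, the variance taken for a gene also drew on that of the other genes tested. Positions came from GENCODE M21 on GRCm38. Log2 CPM had a prior count of 2.

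DESeq2 1.42.0, limma-voom (limma 3.58.1), other scalings and filters, loess offsets (span 0.5) on GC content or length, the replicate number as a block, and leaving out each mouse were tried. The fits were tested on simulated data. The 8 genes and all lists were chosen with earlier results of these data known. Named were the 8 genes, pathway genes with an adjusted p under 0.05, the gene of highest FPKM in each list, the 3 genes likest each of the 8 (among genes with a mean log2 CPM above 3), partners in ratios, marker genes and Orai1. Aph1b was named after its values were seen, as the paralog of Aph1c. Apbb3 was listed but not analysed here, and some genes and ratios covered by these rules are not reported here.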

Additional observations from a re-analysis of the deposited data

How the results depend on the processing

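None of the 8 genes changed its call under another scaling, test, filter or offset, and Sorl1 without transgenic replicate 1 was the 1 call among fits without 1 mouse (0 to 1 called). Signs turned for App with length offsets (0.0375, and 0.038 with the block), Psen2 with GC offsets (-0.0113, and -0.0118 with the block), Sncb with GC offsets (-0.0416, and -0.0429 with the block), and Clu with GC offsets (-0.0195, and -0.013 with the block) and without wild-type replicate 1 or 2 or transgenic replicate 3 (-0.0384 to 0.243 over the fits without 1 mouse), and the cause was not tested. Genes called among all tested, 1355 at first (591 higher, 764 lower), were 2230 with DESeq2's Wald test, 412 (165 higher, 247 lower) with GC offsets, 771 (395 higher, 376 lower) with length offsets, 485 and 596 with these offsets and the block, and 77 to 1149 without 1 mouse. Pathway genes called, 6 at first, were 11 with DESeq2's Wald test, 0 with GC or length offsets and with length offsets and the block, and 0 to 6 without 1 mouse. When the number was a block, 738 of all genes (263 higher, 475 lower) and 3 pathway genes (Gsk3b, Vldlr and Vps29) were called, and with GC offsets and the block 1 pathway gene, which was not among the 6. The numbers were not taken to pair the mice: deviations from the group means correlated at 0.399, -0.357 and 0.388 for same-numbered mice over 11191 genes, and the second transgenic mouse correlated best with the third wild-type mouse (0.536). The differences in ratios moved by less than 1 SD when 1 mouse was left out. Division by length and the block cannot change these differences, and the trends on GC content and length were not removed from the ratios. Counts of the 8 genes were 550 or more in every library, and the precision of their comparison is that of 3 mice in each group.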
